A study of Homo sapiens with 18 samples.

Results

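Expression of 10 genes of hyaluronan-binding and small leucine-rich proteoglycans was followed in IMR90 cells, a human fetal lung fibroblast line. The genes were chosen by name and not by their values: VCAN, ACAN, TNFAIP6, HAPLN1, HAPLN3, LUM, DCN, BGN, FMOD and PRELP, which are 10 of the 56269 genes in the deposited table. All 18 libraries came from IMR90 cells, in 6 groups of 3 biological replicates. A pre-incubation of 6 h came first, in which the cells received PBS alone or hyaluronan (HA) from naked mole-rat skin fibroblasts (NSF) at 20 μg/ml. This HA was given either at its very high molecular mass (cNSF-HA, exposed to heat-inactivated hyaluronidase) or after brief hyaluronidase digestion that shortened the polymer (fNSF-HA). The same 3 pre-incubations were followed in the other 9 libraries by 200 μM tert-butyl hydroperoxide (tBHP), an oxidant, for 1 h after the HA had been removed, and those cells were collected 6 h after the exposure began. The question put to these genes was how their transcripts responded to tBHP, and whether the polymer length of the HA changed their level or that response. Cells without tBHP were collected at the end of the pre-incubation, so each tBHP response also spans 6 h more of culture and the removal of the HA or PBS medium, and these cannot be told apart from tBHP.

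Hyaluronan is a long unbranched sugar polymer of the extracellular matrix that is made without a protein core. Versican (VCAN) and aggrecan (ACAN) are large chondroitin sulfate proteoglycans whose globular end binds the polymer, and the link proteins HAPLN1 and HAPLN3 hold that contact in place. TNFAIP6 encodes TSG-6, a secreted protein that transfers heavy chains from inter-alpha-inhibitor onto hyaluronan. Decorin (DCN), biglycan (BGN), lumican (LUM), fibromodulin (FMOD) and PRELP are small leucine-rich proteoglycans, which sit on collagen fibrils and influence their assembly. In lung fibroblasts these proteins form part of the matrix around the cell.

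The number of reads counted on genes ranged from 20261103 to 26287660 per library. The fibroblast markers COL1A1, COL1A2, COL3A1, PDGFRA, PDGFRB, THY1, FAP and S100A4 were all detected, with a summed level of 430005 to 445658 normalized read counts without tBHP and 311868 to 531640 after tBHP. Summed markers of epithelial cells (EPCAM, CDH1, KRT5, SFTPB, SFTPC) reached at most 9.85, of immune cells (PTPRC, CD68, CD3E, CD14) 19.0, of smooth muscle (MYH11, DES) 38.1 and of cartilage (COL2A1, COL9A1, MATN1) 11.2. Of the endothelial markers, TEK stood at 1279 to 1453 without tBHP and 694 to 1087 after it and VWF at 3.73 to 25.0, while CDH5 was at 0 in all 18 libraries and PECAM1 reached at most 1.14. Libraries differed after tBHP in a trend with GC content. In fNSF + tBHP replicate 2 genes above 58.5% GC had a median deviation of -0.63 on the log2 scale and those below 41.2% one of 0.43, while the other 17 libraries lay between -0.13 and 0.26 for the GC-rich genes. The transcripts of the 10 genes ranged in GC content from 36.3% (LUM), 36.7% (TNFAIP6), 37.7% (HAPLN1), 38.1% (DCN) and 42.9% (VCAN) to 61.1% (HAPLN3) and 61.2% (BGN), around a median of 48.6% for all genes tested.

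In GRCh38 the genes lie largely in neighbouring pairs, with 0 protein-coding genes between the partners. VCAN (chromosome 5, 83471465 to 83582303, forward strand) is followed after 55.5 kb by HAPLN1 (83637805 to 83721613, reverse strand). ACAN (chromosome 15, 88803442 to 88875354, forward) and HAPLN3 (88877288 to 88895626, reverse) lie 1.94 kb apart. LUM (chromosome 12, 91102629 to 91111831, reverse) and DCN (91140484 to 91183123, reverse) are 29 kb apart. FMOD (chromosome 1, 203340628 to 203351758, reverse) and PRELP (203475828 to 203491352, forward) are separated by 124.7 kb. TNFAIP6 (chromosome 2, 151357592 to 151380048, forward) and BGN (chromosome X, 153494939 to 153509554, forward) have no partner among the 10. The library kit did not preserve strand, so reads from overlapping genes on opposite strands could not be told apart.

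The 250 bases before the RefSeq start (GRCh38.p14) were searched for 5 motifs, a feature that the choice of genes did not use. The windows of TNFAIP6, which rose after tBHP in the HA-treated cells, and of ACAN, which did not pass the test in any pre-incubation, are printed 5′ to 3′ on the strand of the gene, as both lie wholly before the first base of the gene in GENCODE as well. They are at chr2:151357342-151357591 and chr15:88803186-88803435, on the forward strand. Capitals mark matches on either strand. The TATA box was searched as TATAAA. The CCAAT box was searched by these letters, the AP-1 site as TGANTCA, and the antioxidant response element core as TGACNNNGC. The motif of the intracellular domain of CD44 was searched as CCTGCG.
TNFAIP6: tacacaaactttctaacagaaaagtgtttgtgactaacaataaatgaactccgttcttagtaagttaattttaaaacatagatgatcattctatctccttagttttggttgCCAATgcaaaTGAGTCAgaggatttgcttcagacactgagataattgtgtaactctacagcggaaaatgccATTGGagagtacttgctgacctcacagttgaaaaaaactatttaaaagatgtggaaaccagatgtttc
ACAN: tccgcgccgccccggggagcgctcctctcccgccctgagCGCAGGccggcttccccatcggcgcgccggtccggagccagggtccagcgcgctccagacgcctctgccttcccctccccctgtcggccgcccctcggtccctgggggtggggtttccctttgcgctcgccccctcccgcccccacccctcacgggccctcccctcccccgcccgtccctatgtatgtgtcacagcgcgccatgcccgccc
TNFAIP6 held 1 AP-1 match (TGAGTCA), 129 bases before the start, a motif found in 6.57% of 35116 windows of the same length, and 2 CCAAT matches, a motif found in 32% of windows. ACAN and VCAN each held 1 match to the CD44 intracellular domain motif (CGCAGG on the strand of the gene), 211 and 193 bases before the start, against 20.2% of windows. FMOD held a TATA match (10.7% of windows) and a CCAAT match, and PRELP a CCAAT match. The windows of HAPLN1, HAPLN3 and BGN held none of the 5 motifs, and the antioxidant response element core (10.9% of windows) was in none of the 8 windows searched. The windows of VCAN, HAPLN1, HAPLN3, BGN and FMOD hold bases that GENCODE counts as part of the gene. LUM and DCN were not searched.

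The 10 genes differed widely in level. Per kilobase of transcript and without tBHP, BGN had the highest level, at 3952 ± 90.6 normalized counts per kb (SD, n = 9 libraries). It was followed by VCAN at 1653 ± 40.5 and by DCN at 909.9 ± 23.1. DCN is annotated with principal transcripts of 1.93 to 7.16 kb; its level was 3374 per kb with the shortest, between BGN and VCAN. HAPLN3 at 214 ± 19.0 and LUM at 184 ± 4.82 followed, and their libraries overlapped. TNFAIP6 stood at 109 ± 13.2, FMOD at 23.6 ± 3.25 and ACAN at 12.4 ± 1.77, each apart from the next without overlap. PRELP at 3.87 ± 0.842 and HAPLN1 at 2.39 ± 0.413 were lowest and overlapped. HAPLN1 rested on 4 to 18 reads per library and PRELP on 13 to 34.

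In limma's test LUM and VCAN were called lower after tBHP in all 3 pre-incubations. BGN was called higher in PBS and cNSF-HA cells, and TNFAIP6 and FMOD in both HA-treated groups. A call in 1 pre-incubation and not in another is not a difference between them. Of the 10 genes, 0 passed limma's test of a difference between responses. In PBS cells, 4 of the 10 genes passed an adjusted p of 0.05 in limma's test (Benjamini-Hochberg over 13686 genes), where 51.1% of all genes tested did: LUM, VCAN and DCN were lower and BGN was higher. In cNSF-HA cells 7 of 10 passed, against 50.8% of all genes: LUM, VCAN, HAPLN1 and DCN were lower, and TNFAIP6, BGN and FMOD were higher. Leaving out HAPLN1, whose mean reached 10 only in the groups without tBHP, 6 of 9 passed. In fNSF-HA cells 5 of 10 passed, against 41.9% of all genes: LUM, VCAN and HAPLN3 were lower, and TNFAIP6 and FMOD were higher. Each of these counts lies within 2 genes of what the share of all genes gives for 10. Their median log2 change was -0.08 in PBS, -0.20 in cNSF-HA and -0.09 in fNSF-HA cells, beside medians of 0.0043, -0.00053 and -0.03 over all genes. In bulk RNA, fewer cells of a kind and less RNA per cell cannot be told apart. Fold changes refer to the log2(value + 1) scale of the test. Replicates spread more after tBHP, with a median SD within groups of 0.21 on the log2 scale, than without it, where it was 0.076.

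**Figure D1:**
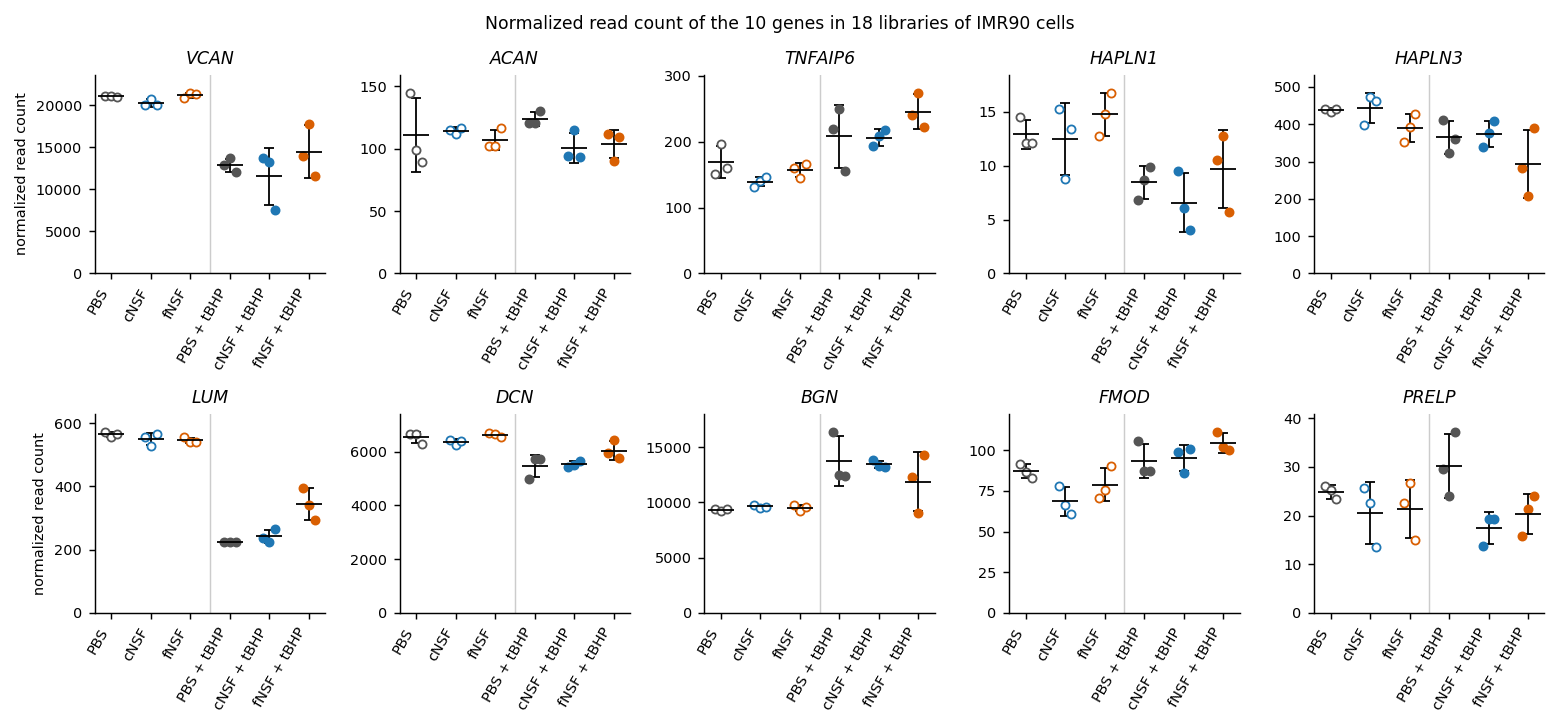
Normalized read count (y axis, linear, from 0) of the 10 genes in each of the 18 libraries, with open points for the groups without tBHP, filled points for those after tBHP, and bars for the mean and SD of 3 replicates. LUM lay between 528 and 573 without tBHP and between 223 and 395 after it, with the 3 fNSF + tBHP libraries above the 6 others after tBHP.

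Among the hyaluronan-binding chondroitin sulfate proteoglycans, VCAN fell in all 3 pre-incubations and ACAN did not pass the test in any. VCAN had 21092, 21166 and 21036 normalized counts in the PBS libraries and 12851, 13691 and 12126 after tBHP. The cNSF-HA cells went from 20016, 20775 and 20056 to 13759.9, 13259 and 7598, and the fNSF-HA cells from 20878, 21432 and 21334 to 14022, 17828 and 11564. The libraries with and without tBHP did not overlap in any pre-incubation, but after tBHP the HA-treated replicates lay far apart, with cNSF + tBHP replicate 3 lowest and fNSF + tBHP replicate 2 highest. The log2 change was -0.71 (standard error 0.16, limma adjusted p = 0.00155) in PBS cells, a 1.64-fold decrease. It was -0.86 (adjusted p = 0.000311 in limma) in cNSF-HA cells and -0.57 (adjusted p = 0.00916 in limma) in fNSF-HA cells. Without cNSF + tBHP replicate 3 the cNSF-HA change was -0.59.

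ACAN, typical of cartilage, had 145, 98.9 and 89.1 normalized counts in PBS cells and 120.3, 121 and 130.2 after tBHP. The cNSF-HA values were 115, 111 and 117 without and 93.8, 115 and 93.5 after tBHP, and the fNSF-HA values 102, 102 and 116 and 111, 90.4 and 109. The groups with and without tBHP overlap in every pre-incubation. The log2 changes were 0.19 (95% interval -0.14 to 0.51) in PBS, -0.19 (-0.51 to 0.14) in cNSF-HA and -0.05 (-0.37 to 0.28) in fNSF-HA cells. Without PBS replicate 1, the highest of the PBS libraries, the change in PBS cells was 0.39 and passed the test (limma adjusted p = 0.0288). Leaving out other single libraries lowered it to as little as 0.047.

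TNFAIP6, which encodes the hyaluronan cross-linking protein TSG-6, rose after tBHP in both HA-treated groups. Its normalized counts were 132, 139.8 and 146 in cNSF-HA cells before tBHP and 193, 208 and 218 after it. The fNSF-HA cells had 159.9, 145 and 166 before and 240.3, 274 and 222 after it. In both groups every library after tBHP was above every library without it. The log2 changes were 0.56 (standard error 0.15, adjusted p = 0.00393 in limma) and 0.64 (standard error 0.15, adjusted p = 0.00188). In PBS cells the counts were 152, 196 and 160.0 without and 219, 249 and 155 after tBHP, and the ranges overlapped because of PBS + tBHP replicate 3. The PBS change was 0.28 (95% interval -0.03 to 0.59, limma adjusted p = 0.125), 0.47 without that library (adjusted p = 0.00715 in limma), and it passed in edgeR (adjusted p = 0.0423). Leaving out 1 library at a time gave PBS changes of 0.13 to 0.47. The response did not differ from that of PBS cells past the threshold: the difference was 0.29 (-0.15 to 0.72) for cNSF-HA and 0.36 (-0.07 to 0.80) for fNSF-HA cells.

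Of the link proteins, HAPLN3 was the more abundant. It had 352, 392 and 428 normalized counts in fNSF-HA cells and 282, 208 and 391 after tBHP, a log2 change of -0.45 (standard error 0.16, limma adjusted p = 0.0311). The ranges overlapped through fNSF + tBHP replicate 3, and the call was lost without any of 4 single libraries: fNSF replicate 2 (-0.45), fNSF replicate 3 (-0.38), fNSF + tBHP replicate 1 (-0.45) and fNSF + tBHP replicate 2 (-0.23). Without fNSF + tBHP replicate 3 the change was -0.68. The call was also lost in edgeR (adjusted p = 0.0936), with TMM scaling, with quantile normalization, with no filter and with only the groups compared, and it held in DESeq2 (adjusted p = 0.0322). In PBS cells HAPLN3 went from 440.3, 432 and 442 to 412, 323 and 361, without overlap, and the change of -0.27 did not pass (limma adjusted p = 0.176). In cNSF-HA cells it went from 397, 473 and 461 to 338, 376 and 408, which overlap, with a change of -0.25 (adjusted p = 0.216 in limma).

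HAPLN1 had the lowest counts of the 10 genes. Its mean in each group was above 10 without tBHP and below 10 after it, so it passed the filter on low values only through the groups where it was higher, and its lower level after tBHP is given as a description. Its normalized counts were 15.3, 8.80 and 13.4 in cNSF-HA cells and 9.49, 6.09 and 4.07 after tBHP, which overlap, with a log2 change of -0.87 (limma adjusted p = 0.0418) that did not pass in edgeR (0.0501) or DESeq2 (0.0918). The call was also lost with no filter on low values and when any of 9 libraries was left out: PBS replicates 1, 2 and 3, cNSF replicates 1 and 3, fNSF replicates 2 and 3, and cNSF + tBHP replicates 2 and 3, with changes of -0.87 to -0.61. In PBS cells the counts were 14.5, 12.1 and 12.1 without and 6.81, 8.71 and 9.85 after tBHP, and in fNSF-HA cells 12.8, 14.8 and 16.8 and 10.5, 12.8 and 5.69. The first pair of groups does not overlap and the other does, and neither change passed: -0.57 (95% interval -1.29 to 0.15) in PBS and -0.62 (-1.34 to 0.10) in fNSF-HA cells.

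The small leucine-rich proteoglycans responded in different directions. LUM, a keratan sulfate proteoglycan that binds collagen fibrils, had the largest log2 change of the 10 genes in all 3 pre-incubations on the deposited scale. With the GC and length trend removed, as given below, TNFAIP6 changed more than LUM in all 3. LUM had 573, 558 and 566 normalized counts in PBS cells and 225, 224 and 225 after tBHP, a 2.51-fold decrease (log2 change -1.33, standard error 0.09, limma adjusted p = 4.10e-09). In cNSF-HA cells it went from 556, 528 and 567 to 238, 223 and 265, a 2.27-fold decrease (log2 change -1.18, adjusted p = 2.04e-08 in limma). In fNSF-HA cells it went from 556, 540.0 and 542 to 395, 343 and 295, a 1.60-fold decrease (log2 change -0.67, adjusted p = 1.80e-05 in limma). All libraries after tBHP were below all libraries without it, and no single library left out changed these calls.

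DCN, the neighbour of LUM, had a much smaller change. Its normalized counts were 6662, 6644 and 6298 in PBS cells and 4999, 5721 and 5713 after tBHP (log2 change -0.26, standard error 0.06, limma adjusted p = 0.00212). They were 6439.8, 6260.4 and 6408 and 5449.6, 5509 and 5666 in cNSF-HA cells (log2 change -0.20, adjusted p = 0.0114 in limma). In fNSF-HA cells they were 6691, 6659 and 6539.6 and 5937, 6442 and 5750.4, which do not overlap, and the change of -0.14 did not pass (limma adjusted p = 0.0879). It passed without PBS + tBHP replicate 1 (0.0488) and without fNSF + tBHP replicate 2 (0.0185, log2 change -0.18). The direction of the DCN change turned when the trend with GC content was removed, as given below.

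BGN, an X-linked relative of decorin, was higher after tBHP. It had 9416, 9201 and 9374 normalized counts in PBS cells and 16393, 12529 and 12419.6 after tBHP, a 1.46-fold increase (log2 change 0.55, standard error 0.12, limma adjusted p = 0.00106). In cNSF-HA cells it went from 9807, 9493 and 9618 to 13837, 13341 and 13231 (log2 change 0.48, adjusted p = 0.00304 in limma). In fNSF-HA cells the counts were 9735, 9193 and 9596 and 12338, 9021 and 14299, and fNSF + tBHP replicate 2 lay below the libraries without tBHP. The fNSF-HA change of 0.30 did not pass (limma adjusted p = 0.058), but it was 0.48 without that replicate (limma adjusted p = 0.000152), and it passed without PBS + tBHP replicate 1 (0.033), in edgeR (0.0215) and in DESeq2 (0.0325). With each library left out in turn, the change ran from 0.15 to 0.48.

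FMOD, which modulates collagen fibril formation, had low counts: 78.2, 66.5 and 61.0 in cNSF-HA cells and 99.1, 86.2 and 101 after tBHP, and 70.6, 75.9 and 90.4 and 111, 102 and 100.2 in fNSF-HA cells. Both pairs of groups were apart without overlap, with log2 changes of 0.47 (standard error 0.14, limma adjusted p = 0.00748) and 0.41 (standard error 0.14, adjusted p = 0.0222 in limma). The fNSF-HA call was lost without fNSF replicate 1 (0.33), fNSF replicate 2 (0.38) or fNSF + tBHP replicate 1 (0.36). It was also lost with no filter on low values and with only the groups compared. In PBS cells the counts were 91.7, 86.8 and 83.0 without and 106, 87.1 and 87.5 after tBHP, which overlap, and the change was 0.09 (-0.19 to 0.38). The FMOD mean went from 87.2 to 93.4 in PBS, from 68.6 to 95.3 in cNSF-HA and from 79.0 to 105 in fNSF-HA cells. No difference between these responses passed in limma's test.

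PRELP, the FMOD neighbour, did not pass the test in any pre-incubation. Its normalized counts were 26.1, 25.2 and 23.3 in PBS cells and 29.5, 23.95 and 37.2 after tBHP. They were 25.8, 22.5 and 13.4 with cNSF-HA and 22.6, 26.6 and 14.9 with fNSF-HA before tBHP, and 13.7, 19.3 and 19.3 and 15.8, 21.3 and 23.9 after it. The groups with and without tBHP overlap in every pre-incubation. The log2 change was 0.25 (-0.33 to 0.84) in PBS, -0.19 (-0.78 to 0.39) in cNSF-HA and -0.05 (-0.64 to 0.53) in fNSF-HA cells, intervals that include changes in either direction.

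**Figure D2:**
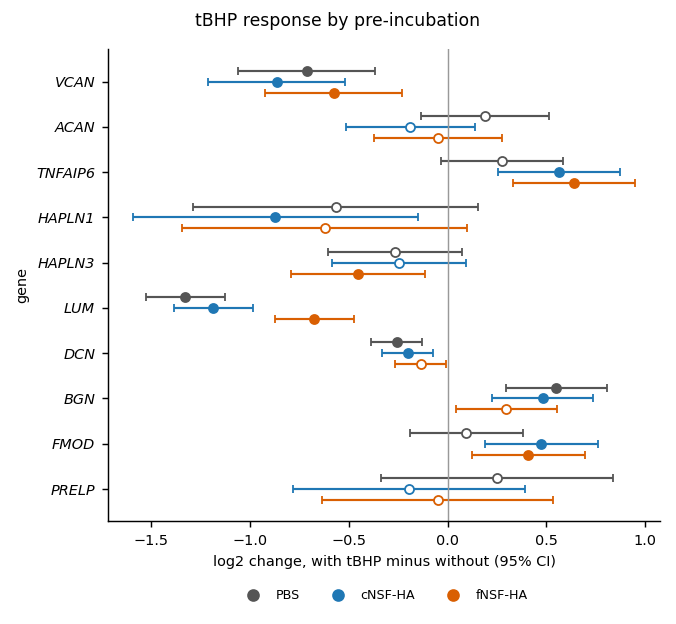
Log2 change in normalized read count with tBHP (x axis, points with 95% confidence intervals) for each gene (y axis) in PBS, cNSF-HA and fNSF-HA cells, with filled points for an adjusted p under 0.05 in limma's test. LUM and VCAN lie to the left of 0 in all 3 pre-incubations, with LUM at -1.33 in PBS, -1.18 in cNSF-HA and -0.67 in fNSF-HA cells.

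Several of these changes differed in size, call or direction when each library's trend with GC content and length of transcripts was removed. When this trend was removed, which also takes away any response that genes of like GC content and length shared, LUM was still lower, by a log2 change of -0.75 in PBS, -0.70 in cNSF-HA and -0.37 in fNSF-HA cells. The VCAN change was -0.49, -0.49 and -0.40, and LUM and VCAN passed in all 3 (largest limma adjusted p = 0.00679, for LUM in fNSF-HA cells). The TNFAIP6 change was 0.82, 0.93 and 0.90, past the threshold in all 3 (limma adjusted p = 4.47e-05 in PBS cells). BGN was higher by 0.28, 0.17 and 0.24, with adjusted p = 3.57e-05, 0.00478 and 0.000184 in limma. DCN turned, to 0.20 (limma adjusted p = 0.026), 0.31 (0.00145) and 0.16 (0.0715). The HAPLN3 change was -0.55, -0.59 and -0.52, past the threshold in all 3 (adjusted p = 9.13e-06, 3.74e-06 and 1.86e-05 in limma). FMOD stood at -0.06, 0.36 and 0.31, and passed in both HA-treated groups (adjusted p = 0.0275 and 0.0494 in limma). HAPLN1 in cNSF-HA cells stood at -0.37 and no longer passed (0.355).

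**Figure D3:**
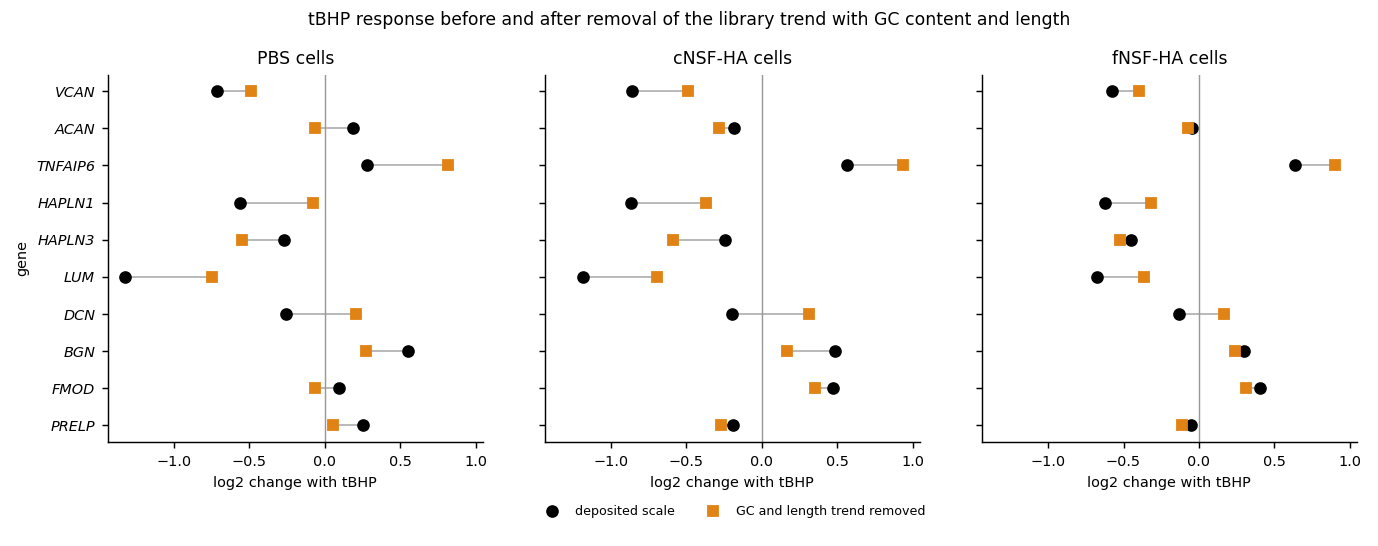
Log2 change with tBHP (x axis) of each gene (y axis) in the 3 pre-incubations, on the deposited scale (black circles) and after the trend of each library with GC content and length was removed (orange squares). DCN crosses 0 in all 3 panels, and in PBS cells LUM moves from -1.33 to -0.75 and TNFAIP6 from 0.28 to 0.82.

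Without tBHP, no difference between the pre-incubations of 6 h passed limma's test in these genes. Of the 10, 0 passed between cNSF-HA and PBS cells, where 0% of all genes did in limma's test (3 of the 10 and 1648 of all genes had an unadjusted p under 0.05, and edgeR called 0 and DESeq2 23 of all genes). edgeR called 0 of the 10, and DESeq2 called 0 of VCAN, DCN and BGN and gave no adjusted p for the other 7. Between fNSF-HA and PBS cells 0 of 10 passed, against 0.139% of all genes (1 of the 10 and 1055 of all genes had an unadjusted p under 0.05). edgeR called 22 and DESeq2 1 of all genes and each 0 of the 10. Between cNSF-HA and fNSF-HA cells 0 of 10 passed, against 6.88% of all genes (3 of the 10 and 2817 of all genes had an unadjusted p under 0.05). edgeR called 651 and DESeq2 422 of all genes. edgeR called 0 of the 10, and DESeq2 again gave an adjusted p for VCAN, DCN and BGN alone and called 0 of these. In cNSF-HA against PBS cells, VCAN (-0.06, 95% interval -0.10 to -0.01), TNFAIP6 (-0.27, -0.49 to -0.06) and FMOD (-0.35, -0.64 to -0.06) were below all PBS libraries and BGN (0.05, -0.01 to 0.10) above them. This was 4 of 10 genes without overlap, where 15.2% of all genes had none, and their adjusted p-values in limma were 0.306, 0.301, 0.319 and 0.484. In fNSF-HA against PBS cells HAPLN3 (-0.17, -0.32 to -0.02) and LUM (-0.05, -0.16 to 0.06) did not overlap, against 14% of all genes. In cNSF-HA against fNSF-HA cells the VCAN difference was -0.06 (-0.11 to -0.02, limma adjusted p = 0.0781) and that of DCN -0.06 (-0.11 to -0.0023, adjusted p = 0.218), both without overlap, against 25.0% of all genes. VCAN passed here with a term for the replicate number (limma adjusted p = 0.0152), and HAPLN3 (0.18) passed without cNSF replicate 1 (0.26, limma adjusted p = 0.0398).

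After tBHP, 0 of the 10 genes and 0% of all genes tested passed in each comparison of pre-incubations in limma's test. Of all genes, 330 (cNSF-HA against PBS), 1104 (fNSF-HA against PBS) and 1672 (cNSF-HA against fNSF-HA) had an unadjusted p under 0.05, and edgeR and DESeq2 called 0 each. For the last of these comparisons the paper, which used DESeq2, does report a set of genes with q under 0.05. It treats them as dependent on HA polymer length. The counts here differ from that result, and the reason was not tested. Of the 10, 1 gene had an unadjusted p under 0.05 in each comparison, PRELP in cNSF-HA against PBS cells and LUM in the other 2. Its libraries held 225, 224 and 225 normalized counts in PBS, 238, 223 and 265 in cNSF-HA and 395, 343 and 295 in fNSF-HA cells. The lowest fNSF-HA library was above the highest of the other 6. LUM was 0.60 higher on the log2 scale in fNSF-HA than in PBS cells (95% interval 0.30 to 0.90, unadjusted p = 0.000954 and adjusted p = 0.557 in limma), a 1.52-fold difference. In the fit of all 18 libraries, which shared 1 estimate of the spread, the limma adjusted p was 0.0261, and LUM was 1 of 19 genes called. Against fNSF-HA cells, LUM in cNSF-HA cells differed by -0.50 (-0.80 to -0.20, limma adjusted p = 0.376), and by -0.61 without fNSF + tBHP replicate 3 (limma adjusted p = 0.0414, with 1010 of all genes called then). Between cNSF-HA and PBS cells the LUM difference was 0.10 (-0.20 to 0.40).

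The difference between the tBHP responses was tested as an interaction. Here 0 of 10 genes and 0% of all genes passed in limma in each of the 3 differences (555, 942 and 533 of all genes had an unadjusted p under 0.05 for cNSF-HA against PBS, fNSF-HA against PBS and cNSF-HA against fNSF-HA), edgeR called 0 in each, and DESeq2 called 0, 6 and 0. Of the 10, 0, 1 and 1 had an unadjusted p under 0.05, in both cases LUM. The LUM response was 0.65 weaker in fNSF-HA than in PBS cells (standard error 0.13, 95% interval 0.37 to 0.93, unadjusted p = 0.000127). Its adjusted p was 0.602 in limma, 0.517 in edgeR and 0.0307 in DESeq2, which called LUM among its 6 genes. Without fNSF + tBHP replicate 3 the difference was 0.76 and passed in limma (adjusted p = 0.0308, with 9 of all genes called), without replicate 1 it was 0.55 (0.668) and without replicate 2 it was 0.65 (0.608). With the GC and length trend removed it was 0.38 (limma adjusted p = 0.621). The cNSF-HA response of LUM differed from that of PBS cells by 0.14 (-0.14 to 0.43) and from that of fNSF-HA cells by -0.51 (-0.79 to -0.23). These comparisons share libraries with each other.

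Of the other genes after tBHP, DCN was above all PBS libraries and above all cNSF-HA libraries in fNSF-HA cells, by 0.14 (-0.06 to 0.34) over PBS, and with the GC trend removed this difference was -0.06. In PRELP both HA groups lay below all PBS libraries, with differences of -0.75 (-1.39 to -0.12, limma adjusted p = 0.995) and -0.55 (-1.18 to 0.09, adjusted p = 0.557). In ACAN both HA groups also lay below all PBS libraries, with differences of -0.30 (-0.65 to 0.05) and -0.26 (-0.61 to 0.09). TNFAIP6 in cNSF-HA cells was below all fNSF-HA libraries, with a difference of -0.25 (-0.63 to 0.14). HAPLN3 in cNSF-HA cells was 0.39 above fNSF-HA cells (-0.05 to 0.83), and 0.62 without fNSF + tBHP replicate 3 (limma adjusted p = 0.047). Over all single libraries left out, this difference ran from 0.17 to 0.62. Of the 10 genes, 2 did not overlap between cNSF-HA and PBS cells (9.57% of all genes), 4 between fNSF-HA and PBS cells (12%) and 3 between cNSF-HA and fNSF-HA cells (13.4%). The intervals of VCAN, BGN and HAPLN1 reached beyond 0.3 on the log2 scale in at least 1 direction in each comparison, so differences of that size lay inside these intervals.

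**Figure D4:**
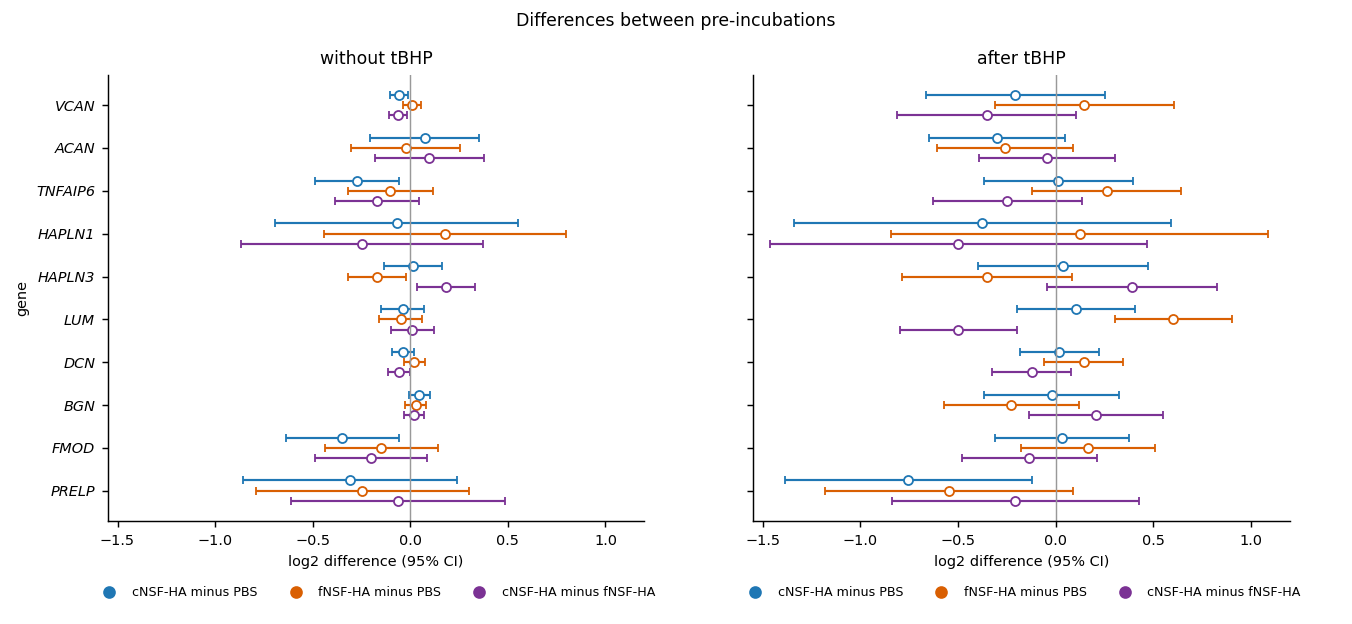
Log2 difference between pre-incubations (x axis, points with 95% confidence intervals) for each gene (y axis) without tBHP (left) and after tBHP (right). Open points mark that no difference passed an adjusted p of 0.05 in limma's test. Without tBHP the intervals of VCAN, DCN and BGN stay within 0.12 of 0, and after tBHP the LUM difference between fNSF-HA and PBS cells is 0.60 with an interval of 0.30 to 0.90.

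Genes that make, sense or cut these molecules were described next to the 10 in the tBHP response of PBS cells, in which 24.2% of all genes were called higher and 26.9% lower. Of 9 measured hyaluronan synthases, hyaluronidases and receptors, 1 was higher and 6 were lower, with a median log2 change of -0.61. Removal of the GC and length trend gave 3 higher and 5 lower, where 7418 of all genes were called against 6995 before. The hyaluronan synthase HAS2, named here after its values were seen, then turned from -0.45 (limma adjusted p = 0.00198) to 0.08 (0.115). HMMR, which encodes the receptor RHAMM, went from 1813 ± 50.02 to 565 ± 93.1 normalized counts (SD, n = 3; log2 change -1.69, limma adjusted p = 2.36e-08). CEMIP, a hyaluronan-depolymerizing protein, changed by -1.54 (adjusted p = 2.49e-05 in limma) and HAS3, a hyaluronan synthase at 19.5 ± 4.64 normalized counts in PBS cells, by -1.43 (0.00431). HAS3 averaged 7.03 after tBHP in PBS cells, under the minimum mean of 10, and passed the filter through the groups where it was higher. Without HAS3 the list held 1 higher and 5 lower of 8, and 3 and 4 with the trend removed. The 1 higher gene, HYAL3, a hyaluronidase relative named here after its value was seen, changed by 0.70 (0.00558). CD44, the main hyaluronan receptor, went from 33425 ± 425 to 33893 ± 581 and did not pass (0.02, limma adjusted p = 0.799).

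Of 20 measured enzymes of chondroitin and dermatan sulfate chains, 4 were higher and 4 lower, and the median was 0.02. With the trend removed 4 were higher and 7 lower, and the median was -0.07. XYLT1, which attaches the first sugar of the chain to the core protein, changed by -0.95 (limma adjusted p = 7.80e-07) and FAM20B, a kinase acting on the linkage region, by -0.67 (5.10e-06). CSGALNACT1, which begins the chondroitin chain, changed by 0.93 (3.89e-07). Of 6 measured enzymes of keratan sulfate chains, 2 were higher and 0 lower: CHST1, a sulfotransferase at 2.49 ± 1.96 normalized counts before tBHP and 17.8 ± 9.89 after (log2 change 2.44), and B4GALT1, a galactosyltransferase, with a log2 change of 0.30 (limma adjusted p = 0.000268). CHST1 passed the filter on low values only through the groups after tBHP, so that it had to differ, and without it 1 of 5 was higher. With the trend removed 3 of 6 were higher, and 2 of 5 without CHST1.

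Among 5 measured ADAMTS proteoglycanases, which cut versican and aggrecan, 1 was higher and 3 lower. ADAMTS4 went from 114 ± 8.53 to 329 ± 31.9 normalized counts (log2 change 1.52, limma adjusted p = 2.60e-08), while ADAMTS15 changed by -1.75 (6.04e-09) and ADAMTS5 by -0.89 (4.10e-05). ADAMTS4 was also called higher and ADAMTS5 and ADAMTS15 lower in the cNSF-HA and fNSF-HA responses. Of 17 measured core proteins of other proteoglycans, 3 were higher and 6 lower, among them GPC1 (0.93), GPC6 (-0.96) and TGFBR3 (-0.92), which are a pair of glypicans and the receptor betaglycan. With the trend removed 4 were higher and 7 lower. Of 3 measured relatives of the small leucine-rich proteoglycans, TSKU (0.78, limma adjusted p = 3.48e-05) and PODNL1 (0.53, 0.0413) were higher and PODN (-0.84, 0.00496) was lower. Of the 4 measured matrix proteins bound by versican or aggrecan, FBLN1 was called higher (0.30, 0.0374). PTX3, the 1 measured gene of 11 for other hyaluronan-binding or cross-linking proteins and named after its values were seen, did not pass in PBS cells (0.18, 0.107). With the GC and length trend removed, the changes of PODNL1 (0.15) and FBLN1 (0.08) no longer passed, and the matrix proteins then counted 0 higher and 3 lower of 4. Apart from HAS2, the other genes named in this comparison for having passed kept their direction and their call, and CD44 passed as higher (0.11, limma adjusted p = 0.00919).

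**Figure D5:**
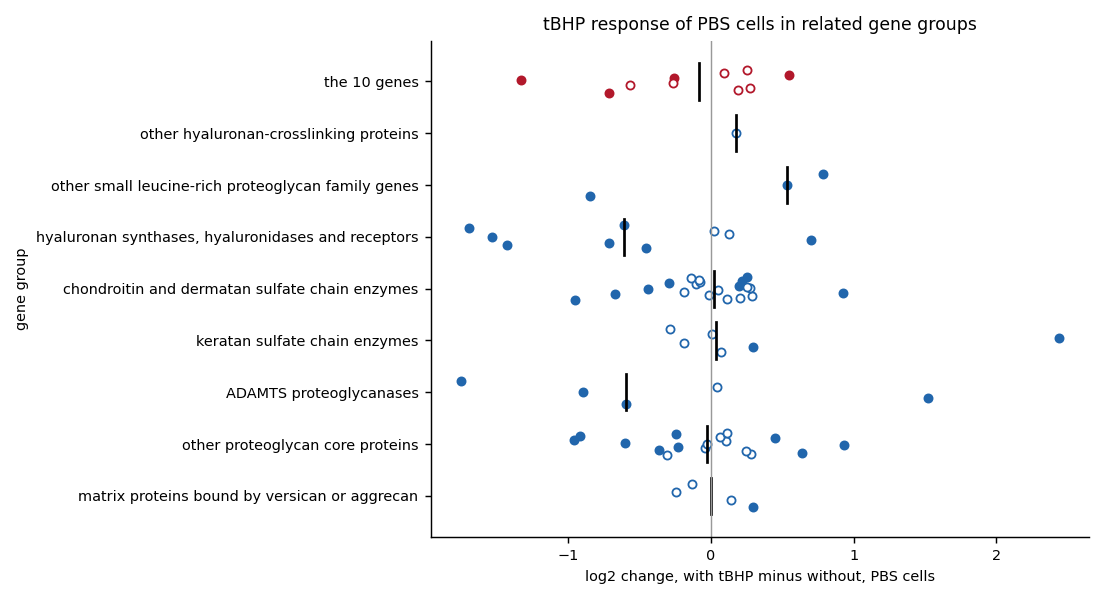
Log2 change with tBHP in PBS cells (x axis) of each measured gene in the 10 genes described (red) and in 8 related groups of genes (blue, y axis), with filled points for an adjusted p under 0.05 in limma's test and a bar at the median. The median of the hyaluronan synthases, hyaluronidases and receptors lies at -0.61 and that of the 10 genes at -0.08.

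In cNSF-HA cells 24% of all genes were called higher and 26.8% lower, and in fNSF-HA cells 19.2% and 22.7%. Of the 9 receptors and enzymes of hyaluronan, the response of cNSF-HA cells held 1 higher and 6 lower (1 and 5 of 8 without HAS3), and that of fNSF-HA cells 0 and 4. Of the 20 chondroitin and dermatan sulfate enzymes, 2 were higher and 6 lower in cNSF-HA and 1 and 7 in fNSF-HA cells. For the keratan sulfate enzymes they were 2 higher and 0 lower of 6 in both, and 1 and 0 of 5 without CHST1. For the ADAMTS proteoglycanases they were 1 and 4 of 5, then 1 and 3. For the other core proteins they were 3 and 6 of 17, then 2 and 5. Of the 3 relatives of the small leucine-rich proteoglycans, 2 were higher and 0 lower in cNSF-HA and 1 and 1 in fNSF-HA cells, and of the 4 matrix proteins 0 and 2, then 0 and 0. PTX3 did not pass in cNSF-HA and was higher in fNSF-HA cells (0.31, limma adjusted p = 0.0101). After removal of the GC and length trend, the genes called over all genes went from 6947 to 7278 in the cNSF-HA and from 5733 to 7283 in the fNSF-HA response. The fNSF-HA response then held 3 higher and 4 lower of the 9 receptors and enzymes of hyaluronan and 4 and 11 of the 20 chondroitin and dermatan sulfate enzymes. It held 2 and 2 of the 6 keratan sulfate enzymes (1 and 2 of 5 without CHST1), 5 and 8 of the 17 other core proteins, and 0 and 3 of the 4 matrix proteins. The cNSF-HA response held 2 higher and 5 lower of the 9 (2 and 4 of 8 without HAS3), 4 and 8 of the 20, 1 and 0 of the 6, 5 and 7 of the 17, and 0 and 3 of the 4, with 2 and 1 of the 3 relatives of the small leucine-rich proteoglycans. The other counts of these lists were as before. Between pre-incubations, the 1 comparison in which genes of these groups passed was cNSF-HA against fNSF-HA without tBHP, with 9 of 65 genes called, 3 higher and 6 lower in cNSF-HA cells, against 6.88% of all genes. Those that the rule for naming genes covers are CD44 (-0.08, limma adjusted p = 0.0256), HMMR (-0.14, 0.024) and GPC6 (-0.15, 0.0367), all lower in cNSF-HA cells. With the GC and length trend removed these were -0.03, -0.02 and -0.08. None of the 9 passed then, while SDC3, a syndecan named after its values were seen, passed as lower (-0.17, limma adjusted p = 0.000785), with 45 of all genes called.

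Over the 18 libraries, the genes whose log2 profile was most like each of the more abundant members were listed as a description, among 10313 genes with a mean of at least 100. They were ANTXR1 (Pearson r = 0.995) and CPD (0.994) for VCAN, LRRC17 (0.986) and C1GALT1C1 (0.982) for LUM, DDX1 (0.982) and ETF1 (0.978) for DCN, and LRP10 (0.995) and PLOD3 (0.992) for BGN. For HAPLN3 they were TONSL (0.955) and OBSL1 (0.947), for TNFAIP6 LXN (0.895) and KYNU (0.886), and for ACAN USB1 (0.635) and MFSD6 (0.622). KYNU averaged 54.7 without tBHP and 147 after it. It reached the minimum mean of 100 only through the libraries after tBHP, so its likeness to TNFAIP6 is partly set by that filter. LRRC17 stood at a mean of 5468 normalized counts without tBHP and 3131 after it. Among the 7 of the 10 genes with a mean of at least 100, DCN and BGN had the lowest r (-0.955). The points of each r share the 2 states of tBHP and the GC trend of the libraries.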

How the data were processed

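RNA of 18 IMR90 cultures (6 groups of 3 biological replicates) was sequenced from polyA libraries made with a kit that does not preserve strand, as single-end reads of 100 nt. Per the labels, reads were trimmed with Trimmomatic 0.32, aligned to GRCh38.p7 with STAR 2.5.2b and counted with featureCounts of Subread 1.5.0-p3. The deposited signal is each gene's read count over the library's DESeq2 size factor, as computed by the authors, and is called normalized count here. The table also holds columns of a comparison by the authors, with p-values and a ranking, which were not used. Whole reads were recovered for 100% of the values, within 5.23e-05 reads.

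Genes with a mean of at least 10 (13686) entered limma 3.58.1 (R 4.3.3), with a mean-variance trend on log2(value + 1), moderated two-sided tests and Benjamini-Hochberg adjustment over all genes tested, and a threshold of 0.05. tBHP responses and their differences were fitted on all 18 libraries. Pre-incubations were compared on the 9 libraries of 1 state, since replicates spread more after tBHP. Alternatives were pseudocounts of 0.1 and 5, no filter, a minimum mean of 50, TMM, quantile normalization, edgeR 4.0.16 and DESeq2 1.42.0 on recovered reads, a replicate block, all 18 libraries, only the groups compared, each library left out, and removal of each library's trend with GC content and length (taken from GENCODE for 93.6% of the genes tested, and modelled by natural splines of 5 degrees of freedom). limma's comparison of PBS cells with and without tBHP was tried on counts simulated with equal dispersion in both states and no GC trend.

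The 10 genes, the related gene lists and the alternatives were chosen with earlier results of these data known. Genes named beyond the 10 were, per list, the 3 with the largest change among those past the threshold in the PBS response, for each of the 10 with a mean of at least 100 the 2 genes most correlated with it, the cell type markers, and CD44. HAS2, HYAL3, PTX3, SDC3 and VCAN-AS1 fall outside this rule and were named after their values were seen. Depth was 20261103 to 26287660 reads per library.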

Additional observations from a re-analysis of the deposited data

Results flagged for a closer look

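The difference between the tBHP responses of LUM in fNSF-HA and PBS cells passed the test of the difference itself in DESeq2, on the recovered reads of all 18 libraries, with an estimate of 0.67 on the log2 scale and an adjusted p of 0.0307 over the genes DESeq2 tested. In the main test with limma it was 0.65 with an adjusted p of 0.602, and in edgeR the adjusted p was 0.517. The LUM libraries after tBHP lay between 295 and 395 normalized counts in fNSF-HA cells and between 224 and 225 in PBS cells, with no overlap. With the GC and length trend removed the difference was 0.38 and its adjusted p in limma 0.621. The part that the GC trend has in this difference was not tested further. No group held more than 3 samples, so no group was tested for an outlying library.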

How the results depend on the processing

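The number of the 10 genes past the threshold in the fNSF-HA response was 5 in the main test, 3 with no filter on low values, 3 with only the groups compared, and between 3 and 7 when 1 library was left out, the 3 being reached without fNSF replicate 2 or fNSF + tBHP replicate 1. Over all genes these were 5733, 5163, 4267 and between 4773 and 6930. In the PBS response it was 4, with 4 to 5 on leaving out 1 library, and in the cNSF-HA response 7, with 6 to 7. With the GC and length trend removed, TNFAIP6 and HAPLN3 also passed in the PBS response. In the cNSF-HA response HAPLN3 was added and HAPLN1 lost, and in the fNSF-HA response BGN was added. DCN passed as higher instead of lower in the PBS and cNSF-HA responses. Between pre-incubations the number of the 10 genes past the threshold was 0 in the main test throughout. It was 1 for cNSF-HA against fNSF-HA without tBHP with the replicate block (VCAN) and 0 to 1 on leaving out 1 library, 1 for fNSF-HA against PBS after tBHP with all 18 libraries (LUM, of 19 among all genes), 0 to 2 for cNSF-HA against fNSF-HA after tBHP on leaving out 1 library, and 1 for the difference of responses between fNSF-HA and PBS with DESeq2 (LUM) and 0 to 1 on leaving out 1 library.

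Direction turned in the following values. With the GC and length trend removed, ACAN stood at -0.0626 and FMOD at -0.063 in the PBS response, DCN at 0.20, 0.31 and 0.16 in the PBS, cNSF-HA and fNSF-HA responses, and DCN at 0.0484 for cNSF-HA against fNSF-HA without tBHP, -0.0577 for fNSF-HA against PBS after tBHP and 0.19 for cNSF-HA against fNSF-HA after tBHP. In the fNSF-HA response ACAN stood at 0.0122 with TMM scaling, 0.0144 with quantile normalization and 0.0163 in edgeR, and between -0.102 and 0.047 on leaving out 1 library, and PRELP at 0.0074 with TMM scaling and between -0.28 and 0.12 on leaving out 1 library. None of these ACAN, FMOD and PRELP values passed the threshold. Removing the GC and length trend takes away by construction what genes of like GC content and length share, and what part of DCN's change that is was not tested. Of 570 values under alternatives other than leaving out 1 library, 530 kept their direction and side of the threshold, 14 lost and 14 gained the call and 12 turned. Of 747 values with 1 library left out these were 716, 16, 10 and 5.

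Whether the replicate numbers pair the samples was not settled. Of 45 pairs of same-numbered libraries, 19 had a correlation of deviations over 0.1, in a range of -0.32 to 0.65. Libraries with different numbers were not compared in this way. With the replicate block the fNSF-HA response called 6 of the 10 genes (BGN was added), the cNSF-HA response 7 and the PBS response 4, beside 5944, 7176 and 7228 of all genes, and the count of all genes called for cNSF-HA against fNSF-HA cells without tBHP was 1439, against 941 in the main test.

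Among all genes, the count for cNSF-HA against fNSF-HA without tBHP ran from 0 (all 18 libraries) to 1439, and from 120 to 1104 on leaving out 1 library, and that after tBHP rose from 0 to 1010 without fNSF + tBHP replicate 3. For cNSF-HA against PBS without tBHP it ran from 0 to 280, and for fNSF-HA against PBS without tBHP from 0 to 38. The scalings moved the median of all genes by at most 0.064 on the log2 scale. The low counts of HAPLN1 and PRELP limit the precision of their changes.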

Other observations

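VCAN-AS1, annotated antisense to VCAN and looked at after the values of VCAN were seen, was counted at 0 to 11 reads (0 to 9.51 normalized counts) in the 9 libraries without tBHP, with 0 in cNSF replicate 3 and fNSF replicate 2, and at 0 in all 9 libraries after tBHP. Since the library kit did not preserve strand, reads of VCAN-AS1 and of VCAN over the same bases could not be told apart, and the VCAN values after tBHP were lower as well.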
